A study of Mus musculus with 12 samples.

Results

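The 9 intermediate filament genes described here are Nefl, Nefm, Nefh, Ina, Prph, Vim, Nes, Gfap and Synm. They were chosen as the rows of the expression table that carry these symbols, and each symbol matched exactly 1 of the 55487 genes listed. The table covers 12 poly(A) RNA-seq libraries of cultured mouse cochlear glial cells, in 4 groups of 3 libraries. All groups came from dissociated spiral ganglia of mice of a mixed C57Bl6 and FVB/N background, with tissue of 6 to 8 animals of both sexes pooled. The sample labels give postnatal day 4 as the age, although the growth protocol in the same labels covers a wider range.

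The sphere group was cultured in SCM, a sphere medium with EGF (20 ng/ml), bFGF (10 ng/ml), IGF (50 ng/ml) and heparan sulfate (50 ng/ml). Cells of the other groups were plated from such spheres and analysed after 14 days. SCDM is a differentiation medium with BDNF (50 ng/ml) and NT3 (50 ng/ml), and SCDM/FGF is the same medium with bFGF (100 ng/ml). FIBCL stands for Forskolin (20 μM), ISX9 (20 μM), the bromodomain inhibitor I-BET (1 μM), CHIR99021 (10 μM) and LIF (1000 U/ml), given in Neurobasal medium with bFGF. The labels list bFGF in that medium both at 50 and at 100 ng/ml and name neither BDNF nor NT3 for it. In any comparison with FIBCL, the effects of the base medium, of the growth factors and of the 5 added agents cannot be told apart. In comparisons with spheres, the effects of plating, of the 14 days and of the changed growth factors cannot be told apart either. The table names the FIBCL columns FIBC, which the study also uses for the mixture without LIF, so whether LIF was present cannot be read from the table. The labels call the replicates biological without naming separate animals or cultures, so the p-values measure the spread between these libraries, which may be technical.

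Intermediate filaments are rope-like protein polymers that give a cell its mechanical strength, and cell types are often recognised by the subunits they make. Neurons build neurofilaments from the light, medium and heavy subunits together with α-internexin or peripherin, and these polymers set the calibre of the axon. Vimentin and nestin form the filaments of progenitor and mesenchymal cells, the glial fibrillary acidic protein is found in astrocytes and in peripheral glia, and synemin joins other subunits in copolymers. In the cochlea, spiral ganglion neurons carry neurofilaments, and peripherin is known as a marker of their type II cells.

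The 5 neuronal subunits were highest in FIBCL, where Vim, Nes and Gfap were lowest, whereas SCDM held under 1 TPM of each neuronal subunit. Nefl and Nefm averaged 53.9 ± 3.23 and 56.0 ± 6.36 TPM in FIBCL (SD, n = 3), against 0.0733 ± 0.0208 and 0.263 ± 0.0503 TPM in SCDM. Vim fell from 1818 ± 27.3 TPM in SCDM to 635 ± 62.1 TPM in FIBCL, and Gfap fell from 33.8 ± 4.26 to 0.05 ± 0.0436 TPM. Nefh and Prph were low even in FIBCL, at 1.40 ± 0.171 and 1.53 ± 0.647 TPM, Vim was still the most abundant of the 9 genes there, and Synm was highest in SCDM. TPM is an abundance unit that corrects for gene length and for the total of the library. Differences were tested with limma and are given on the scale of log2(scaled TPM + 1), where scaled TPM are the deposited values after rescaling of each library. On this scale the change of a gene with low values comes out too small. Adjusted p-values are Benjamini-Hochberg values over all 16016 genes tested in a comparison, and a gene is said to have risen or fallen where its adjusted p was under 0.05.

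Of the 9 genes, 8 reached at least 1 TPM in at least 3 libraries and were tested, and Prph did not. Nefh and Ina passed this limit only through the 3 FIBCL libraries, so that a difference of FIBCL from the other groups was built into their selection. The depth of the libraries is unknown, because TPM do not keep the number of reads, and no counting interval is given. Between 21625 and 22281 genes were above 0 per library. The listed values summed to between 899295 and 911076 TPM in FIBCL and to between 982067 and 994845 TPM in the other groups. Rescaling multiplied the FIBCL libraries by 1.20 to 1.31 and the others by 0.84 to 1.02. The cause of the lower sums in FIBCL was not tested. Rescaling moved the median log2 difference of all genes tested between FIBCL and SCDM from -0.40 to -0.07. Of 10 housekeeping genes 2 rose and 5 fell in that comparison, or 1 and 9 without rescaling, with log2 differences between -0.39 (B2m) and 0.60 (Gapdh). Of all genes tested, 32.7% rose and 39.0% fell there, or 20.5% and 55.7% without rescaling. In bulk RNA, fewer cells of a type and less RNA per cell cannot be told apart.

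The labels describe all 3 differentiated groups as induced neurons, and the neuronal markers were checked in each group. Of 11 neuronal marker genes, Snap25, Elavl3, Elavl4, Dcx and Rbfox3 were under 1 TPM in every library of spheres, SCDM and SCDM/FGF. In FIBCL, Snap25, a synaptic vesicle fusion protein, reached 28.66 to 31.60 TPM and Stmn2, a regulator of axonal microtubules, 140.18 to 160.46 TPM. Dcx and Elavl4 stayed under 1 TPM in FIBCL as well, with at most 0.06 and 0.68 TPM, and Rbfox3 lay between 0.40 and 1.22 TPM. Tubb3, neuronal β-tubulin, and Stmn2 were also higher in SCDM than in spheres, by 1.11 and 0.78 on the log2 scale (limma, adjusted p = 2.15e-06 and 0.000180), with 11.65 to 12.56 TPM of Tubb3 and 1.82 to 1.98 TPM of Stmn2 in SCDM against 5.07 to 5.97 and 0.52 to 1.04 TPM in spheres. Of the 8 neuronal markers tested, 3 rose and 2 fell from spheres to SCDM, where 24.5% of all genes tested rose and 25.8% fell. From SCDM to FIBCL 7 of the 8 rose, against 32.7% of all genes, but Snap25 and Elavl3 passed the limit on low values only through FIBCL, and Dcx, Elavl4 and Rbfox3 did not pass it. Gap43, a growth cone protein named here after its values were seen, fell by 1.38 from SCDM to FIBCL (adjusted p = 3.19e-08).

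**Figure D1:**
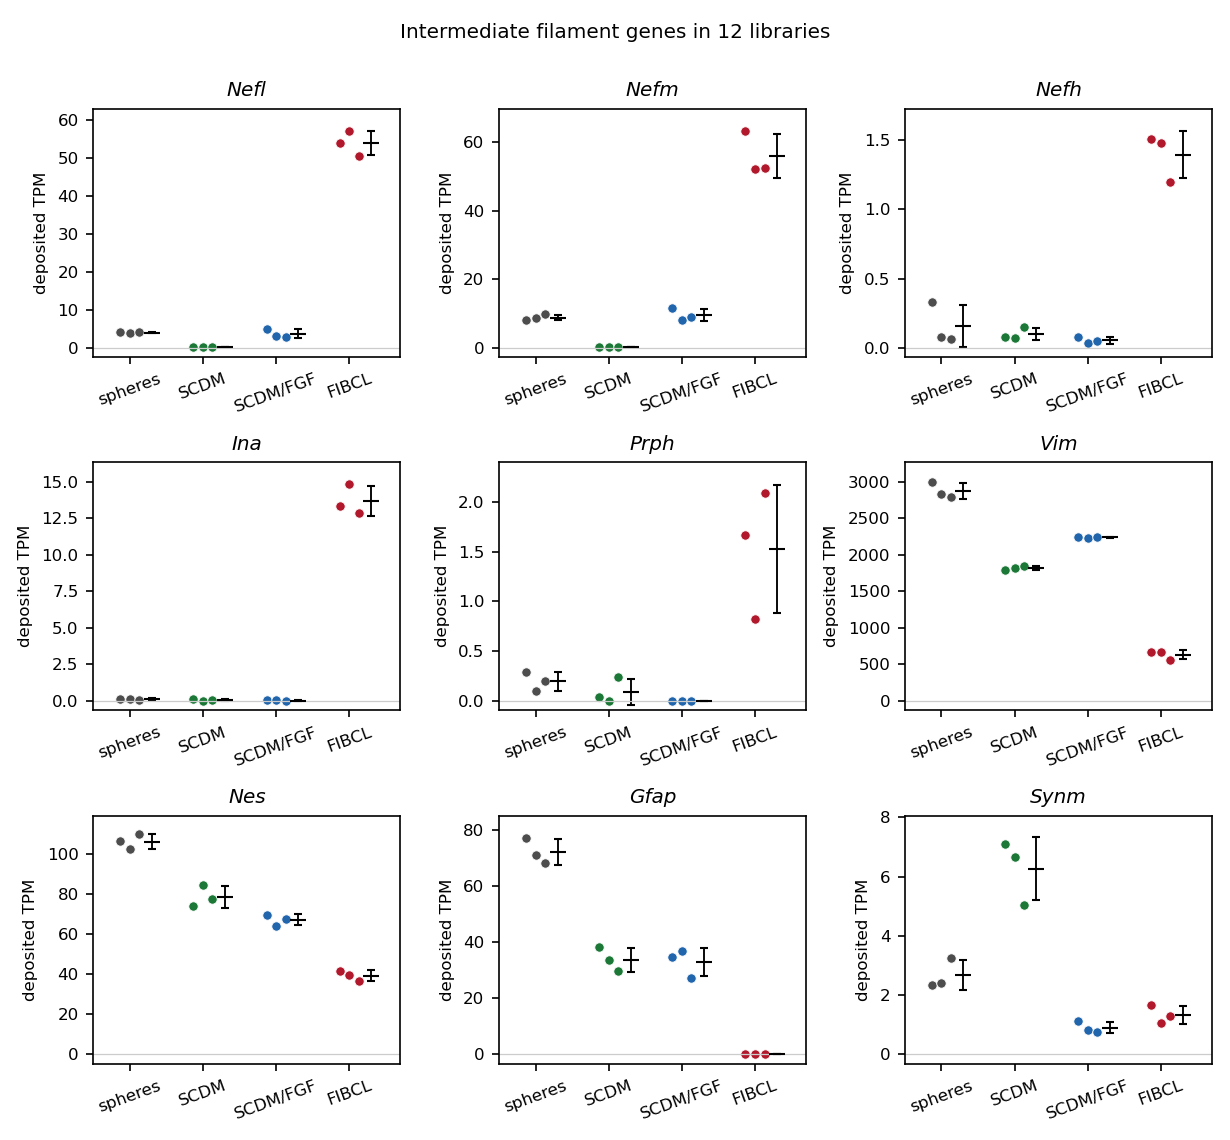
Deposited TPM of each of the 9 intermediate filament genes (vertical axes, linear, each with its own range) in the 12 libraries, by group on the horizontal axes. Coloured points are libraries, and the black bar and whiskers give the mean and SD of 3 libraries. The neuronal subunits are highest in FIBCL, whereas Vim, Nes and Gfap are highest in spheres and Synm is highest in SCDM.

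The genes lie on 7 chromosomes, and positions are given in GENCODE M21 on GRCm38, while the build used by the study is not given in the sources used here. Nefl lies at chr14:68083863-68089095 on the plus strand and Nefm at chr14:68082590-68124846 on the minus strand, so Nefl lies within the annotated span of Nefm, on the opposite strand. The final exon of an alternative Nefm transcript, Nefm-202, covers 1108 exonic bases of Nefl-201 on the other strand. The reads were aligned with an orientation mode per the study's methods, but whether strand was used in counting is not stated, and reads in the overlap may have been shared between the 2 genes. Nefh lies at chr11:4938754-4948064 and Gfap at chr11:102887336-102900912, both on the minus strand. The other genes are Ina (chr19:47014698-47025327, plus strand), Prph (chr15:99055174-99058978, plus strand), Vim (chr2:13573927-13582826, plus strand), Nes (chr3:87971078-87980451, plus strand) and Synm (chr7:67730160-67759742, minus strand). Nefm also overlaps Gm19216, Ina overlaps Nt5c2, Gfap overlaps Gm26668, and Synm overlaps Ttc23 and Gm45102, each on the opposite strand, and reads of these genes may also have been shared.

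Promoter sequences from RefSeq (GRCm38.p6) were matched by symbol for 6 of the 9 genes, namely Ina, Prph, Vim, Nes, Gfap and Synm. The windows of 4 genes are printed, because Ina and Prph were at or near 0 outside FIBCL whereas Vim and Gfap were lowest in FIBCL. Each window runs 5′ to 3′ on the gene's strand from 130 bases before to 20 bases after the RefSeq start, and for Vim and Gfap this start lies inside the GENCODE gene. Capitals mark matches of the motifs searched on both strands, which were the TATA box (TATAAA), the GC box (GGGCGG), the CCAAT box (CCAAT), the palindromic STAT motif (TTCNNNGAA) and the CRE half-site (TGACG).
Ina (chr19:47014551-47014700, plus strand): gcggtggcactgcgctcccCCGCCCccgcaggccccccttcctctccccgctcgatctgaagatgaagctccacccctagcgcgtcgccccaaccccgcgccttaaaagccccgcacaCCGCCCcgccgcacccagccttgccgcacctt
Prph (chr15:99055044-99055193, plus strand): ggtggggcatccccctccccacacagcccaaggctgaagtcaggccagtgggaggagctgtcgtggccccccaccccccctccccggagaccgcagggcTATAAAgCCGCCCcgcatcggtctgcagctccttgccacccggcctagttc
Vim (chr2:13574181-13574330, plus strand): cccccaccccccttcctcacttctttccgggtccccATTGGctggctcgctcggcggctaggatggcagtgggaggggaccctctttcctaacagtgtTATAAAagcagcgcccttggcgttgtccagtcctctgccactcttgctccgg
Gfap (chr11:102897181-102897330, minus strand): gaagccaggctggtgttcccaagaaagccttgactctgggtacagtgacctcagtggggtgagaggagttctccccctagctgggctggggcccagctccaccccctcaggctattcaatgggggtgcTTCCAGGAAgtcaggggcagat

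The searches covered 250 bases before to 50 bases after the start. The window of Ina held 2 GC boxes, 111 and 12 bases before the start, in the reverse orientation CCGCCC. In Prph a TATA box lay 31 bases before the start with a reverse GC box beside it, and in Vim a TATA box lay 32 bases and a CCAAT box in reverse orientation (ATTGG) 94 bases before the start, with another CCAAT box 196 bases before it, outside the printed window. The Gfap window held the STAT motif, beginning 2 bases before the start, and none of the other letters searched. Of all 32851 windows in the table, 13.6% held the TATA box, 35.7% the GC box, 37.4% the CCAAT box, 8.30% the STAT motif and 20.8% the CRE half-site. The GC box was also found in Nes and the CCAAT box in Synm, and the CRE half-site was in none of the 6 windows. These matches describe the letters of the windows and were not related to the expression values.

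Nefl encodes the light subunit, which forms the core of the neurofilament. Its deposited values were 54.02, 57.02 and 50.57 TPM in FIBCL, 5.00, 3.03 and 2.83 TPM in SCDM/FGF, 4.13, 3.76 and 4.02 TPM in spheres, and 0.08, 0.09 and 0.05 TPM in SCDM. FIBCL stood above and SCDM below every other library, and spheres and SCDM/FGF overlapped. From SCDM to FIBCL Nefl rose by 5.99 on the log2 scale (limma, SE 0.14, adjusted p = 1.16e-11). The ratio of the scaled means was 970, over an SCDM level near 0. Nefl also fell from spheres to SCDM by 2.04 (adjusted p = 2.76e-07) and was higher in SCDM/FGF than in SCDM by 2.08 (adjusted p = 2.56e-07), while spheres and SCDM/FGF differed by 0.04 (95% confidence interval -0.25 to 0.34, adjusted p = 0.811). With a pseudocount of 0.1 in place of 1 TPM, the difference was -4.37 between SCDM and spheres and 4.42 between SCDM/FGF and SCDM.

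Nefm encodes the medium subunit, whose long tail projects from the filament. The libraries held 63.31, 52.24 and 52.36 TPM in FIBCL, 11.52, 8.10 and 9.06 TPM in SCDM/FGF, 8.13, 8.54 and 9.71 TPM in spheres, and 0.27, 0.21 and 0.31 TPM in SCDM. As for Nefl, FIBCL was highest, SCDM was lowest, and the ranges of spheres and SCDM/FGF overlapped. Nefm rose from SCDM to FIBCL by 5.82 on the log2 scale (SE 0.11, adjusted p = 3.16e-12), with a ratio of scaled means of 280. It fell by 2.77 from spheres to SCDM, and SCDM/FGF was 3.07 above SCDM (adjusted p = 2.10e-09 for the latter). With a pseudocount of 0.1 these differences of Nefm were -4.45 and 4.79. The rise of 0.30 from spheres to SCDM/FGF (adjusted p = 0.0402) was no longer called on the deposited TPM without rescaling, where it was 0.10 (adjusted p = 0.520). That call was also lost when replicate 1 or 3 of SCDM/FGF, replicate 1 or 2 of spheres or replicate 3 of FIBCL was left out, with adjusted p up to 0.149. It was lost as well with a pseudocount of 0.1 (difference 0.33, adjusted p = 0.0758), without the limit on low values (0.0704) and with only the libraries compared in the fit (0.105).

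The ratio of Nefl to Nefm within a library, which rescaling does not change, was 0.970 ± 0.119 in FIBCL, 0.373 ± 0.0608 in SCDM/FGF and 0.454 ± 0.0485 in spheres (SD, n = 3). In SCDM it was 0.295 ± 0.134, from values below 1 TPM. FIBCL libraries lay between 0.853 and 1.09, and all others were at or below 0.508. The ratio was not tested.

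Nefh encodes the heavy subunit, which is added late as axons mature. Its values were 1.51, 1.48 and 1.20 TPM in FIBCL, 0.33, 0.08 and 0.06 TPM in spheres, 0.08, 0.07 and 0.15 TPM in SCDM, and 0.08, 0.03 and 0.05 TPM in SCDM/FGF. All 3 FIBCL libraries were above the rest, at a level far below Nefl and Nefm. Nefh was higher in FIBCL than in SCDM by 1.32 on the log2 scale (adjusted p = 4.14e-07), and by 3.26 with a pseudocount of 0.1. It passed the limit on low values only through FIBCL, so nothing is read from this p-value. No difference between spheres, SCDM and SCDM/FGF passed the test, and the largest, between spheres and SCDM/FGF, was -0.10 (95% confidence interval -0.33 to 0.13).

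Ina encodes α-internexin, a neuronal subunit that appears early in neuronal development. FIBCL libraries held 13.32, 14.82 and 12.87 TPM. Spheres held 0.15, 0.15 and 0.05 TPM, SCDM 0.13, 0.02 and 0.10 TPM, and SCDM/FGF 0.05, 0.05 and 0 TPM. Outside FIBCL the gene was thus at or near 0 in every library. Ina was 4.06 higher in FIBCL than in SCDM on the log2 scale (adjusted p = 1.26e-11) and 6.63 higher with a pseudocount of 0.1. The gene passed the limit on low values only through FIBCL, so nothing is read from this p-value. Spheres, SCDM and SCDM/FGF did not differ past the test.

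Prph encodes peripherin, a subunit of peripheral neurons. FIBCL libraries reached 1.67, 0.82 and 2.09 TPM, against 0.29, 0.10 and 0.20 TPM in spheres, 0.04, 0 and 0.24 TPM in SCDM, and 0 TPM in all 3 SCDM/FGF libraries. FIBCL did not overlap with any other group. Without the limit on low values, Prph was 1.38 higher in FIBCL than in SCDM on the log2 scale (adjusted p = 0.000112 over the 31047 genes then tested). The order of Prph among spheres, SCDM and SCDM/FGF rests on values close to 0.

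Vim encodes vimentin, the main filament protein of mesenchymal and many progenitor cells, and was the most abundant of the 9 genes in every library. Its values were 2991.79, 2836.75 and 2792.35 TPM in spheres, 2247.33, 2231.76 and 2243.19 TPM in SCDM/FGF, 1787.85, 1824.53 and 1841.32 TPM in SCDM, and 663.98, 677.42 and 563.74 TPM in FIBCL. None of the 4 ranges overlapped. Among all genes of a library Vim ranked 26 to 28 in spheres, 46 to 49 in SCDM/FGF, 76 to 78 in SCDM and 166 to 181 in FIBCL. It fell by 1.12 on the log2 scale from SCDM to FIBCL (SE 0.05, adjusted p = 1.96e-09) and by 0.52 from spheres to SCDM, and SCDM/FGF was 0.39 above SCDM (adjusted p = 5.36e-05). The fall of 0.13 from spheres to SCDM/FGF (adjusted p = 0.0455) was lost when 1 library was left out, with adjusted p up to 0.147, except without replicate 2 or 3 of FIBCL or replicate 3 of spheres. On the deposited TPM without rescaling this difference of Vim was -0.36 (adjusted p = 0.000449). The call was lost without the limit on low values (adjusted p = 0.101), with only the libraries compared in the fit (0.117) and with 1 prior variance for all genes (0.0822).

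Nes encodes nestin, a filament protein of neural progenitors that assembles with vimentin. The values were 106.38, 102.52 and 109.77 TPM in spheres, 73.89, 84.68 and 77.58 TPM in SCDM, 69.71, 64.19 and 67.53 TPM in SCDM/FGF, and 41.66, 39.77 and 36.66 TPM in FIBCL. The groups did not overlap in this order. From SCDM to FIBCL Nes fell by 0.59 on the log2 scale (adjusted p = 3.45e-07), a smaller shift than that of Vim. On the deposited TPM the difference of Nes was -0.98 between FIBCL and SCDM, -0.76 between FIBCL and SCDM/FGF and -1.41 between FIBCL and spheres, so its size depends on the rescaling. The difference of -0.14 between SCDM/FGF and SCDM (adjusted p = 0.0286) was lost without replicate 2 or 3 of SCDM or without replicate 2 of SCDM/FGF (adjusted p up to 0.111). It was not called either with only the libraries compared in the fit (0.0918), with 1 prior variance for all genes (0.0616) or with the replicate number as a block (0.0527). On the deposited TPM it was -0.22 (adjusted p = 0.0130). The ratio of Nes to Vim was 0.0622 ± 0.00320 in FIBCL and at most 0.0464 in every other library, so that nestin made up more of the pair in FIBCL. This ratio was not tested.

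Gfap encodes the glial fibrillary acidic protein. Its values were 77.26, 71.05 and 68.41 TPM in spheres, 38.21, 33.51 and 29.71 TPM in SCDM, 34.73, 36.85 and 27.21 TPM in SCDM/FGF, and 0.10, 0.02 and 0.03 TPM in FIBCL. SCDM and SCDM/FGF overlapped, and all FIBCL libraries were near 0. Gfap fell by 4.95 on the log2 scale from SCDM to FIBCL (SE 0.11, adjusted p = 1.32e-11), and the scaled mean was 521 times as high in SCDM. With a pseudocount of 0.1 the difference of Gfap was -7.67. It also fell by 0.93 from spheres to SCDM and by 0.89 from spheres to SCDM/FGF, while SCDM/FGF and SCDM differed by 0.04 (95% confidence interval -0.21 to 0.29, adjusted p = 0.808). Of 10 glial markers, 9 fell from spheres to SCDM (median -1.38), where 25.8% of all genes fell. From spheres to SCDM/FGF 9 fell and 1 rose (median -1.37), where 25.4% of all genes fell. Of 6 astrocyte markers, 5 fell in SCDM, and 3 fell and 2 rose in SCDM/FGF. The part of such cells in the level of Gfap was not tested.

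Synm encodes synemin, a large subunit that links filaments to adhesion sites in muscle and glia. It followed another order, with 7.10, 6.66 and 5.06 TPM in SCDM, 2.35, 2.41 and 3.25 TPM in spheres, 1.67, 1.06 and 1.28 TPM in FIBCL, and 1.12, 0.81 and 0.77 TPM in SCDM/FGF. SCDM was above all other libraries, and FIBCL overlapped with SCDM/FGF. Synm rose from spheres to SCDM by 1.07 on the log2 scale (adjusted p = 9.36e-05) and fell from spheres to SCDM/FGF by 0.78, or by 1.25 with a pseudocount of 0.1. It was 1.86 lower in SCDM/FGF than in SCDM (SE 0.15, adjusted p = 1.31e-06) and fell by 1.38 from SCDM to FIBCL. The rise of 0.48 from SCDM/FGF to FIBCL (adjusted p = 0.0121) was no longer called on the deposited TPM, where it was 0.29 (adjusted p = 0.105), was 0.81 with a pseudocount of 0.1, and was not called without replicate 1 of FIBCL (adjusted p = 0.0552). The difference of -0.30 between FIBCL and spheres missed the threshold (adjusted p = 0.0883), and on the deposited TPM it was -0.65 (adjusted p = 0.00213).

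Set against SCDM/FGF, which also contained bFGF, FIBCL was higher by 3.91 for Nefl, 2.75 for Nefm, 1.38 for Nefh and 4.12 for Ina on the log2 scale. Vim was lower by 1.51, Nes by 0.45 and Gfap by 4.99 (limma, adjusted p at most 4.06e-06 for these 7 genes). Set against spheres, FIBCL was higher by 3.96 for Nefl, 3.05 for Nefm, 1.28 for Nefh and 4.03 for Ina. Vim was lower by 1.63, Nes by 0.87 and Gfap by 5.88 (adjusted p at most 6.06e-07). With a pseudocount of 0.1 the differences from SCDM/FGF were 3.59 for Nefh, 7.03 for Ina and -7.71 for Gfap, and those from spheres 3.10 for Nefh and 6.45 for Ina. Nefl, Nefm, Vim, Nes and Gfap thus kept their direction against each of the other groups, and Synm did not. Nefh and Ina passed the limit on low values only through FIBCL, so nothing is read from their direction. All these comparisons share the FIBCL libraries.

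Counted over the 8 genes tested, 4 rose from SCDM to FIBCL, in a comparison in which 32.7% of all genes tested rose, and 4 fell, where 39.0% of all genes fell. All 9 genes, with Prph included although it was not tested, had deposited values that did not overlap between these groups, against 78.4% of all genes tested. On the deposited values the median log2 difference over all genes tested was -0.40. With a log2 difference of at least 1.5 required as well, 3 rose (Nefl, Nefm and Ina, background 7.89%) and 1 fell (Gfap, background 9.98%). That last count depends on the setting, with 3 rising and 3 falling (Vim and Synm as well) on the deposited TPM, and 4 rising (Nefh as well) and 2 falling (Synm as well) with a pseudocount of 0.1. The background moved too. Of all 16016 genes tested, 2862 passed both limits in either direction, 2962 on the deposited TPM and 4011 with a pseudocount of 0.1. Against SCDM/FGF, 5 were higher (32.5% of all genes) and 3 lower (38.2%) in FIBCL, and against spheres 4 were higher (32.9%) and 3 lower (38.7%). Nefh and Ina entered these counts only through FIBCL, so nothing is read from them. The median log2 difference from SCDM to FIBCL was -1.25 over Vim, Nes, Gfap and Synm, against -0.07 over all genes. In SCDM against spheres, 1 gene was higher (24.5%) and 5 were lower (25.8%). In SCDM/FGF against spheres, 1 was higher (25.0%) and 4 were lower (25.4%). SCDM/FGF differed from SCDM in 5 of the 8, with 3 higher (21.8%) and 2 lower (21.3%). Without replicate 1 or 3 of SCDM/FGF or replicate 1 or 2 of spheres, 3 genes in place of 5 were called between SCDM/FGF and spheres. Without replicate 1 of FIBCL, 5 of the 6 genes then tested were called between FIBCL and SCDM/FGF. On the deposited TPM 4 were higher and 3 lower in FIBCL than in SCDM/FGF, 4 higher and 4 lower in FIBCL than in spheres, and none higher and 4 lower in SCDM/FGF than in spheres. The comparisons share groups and are not independent of each other.

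**Figure D2:**
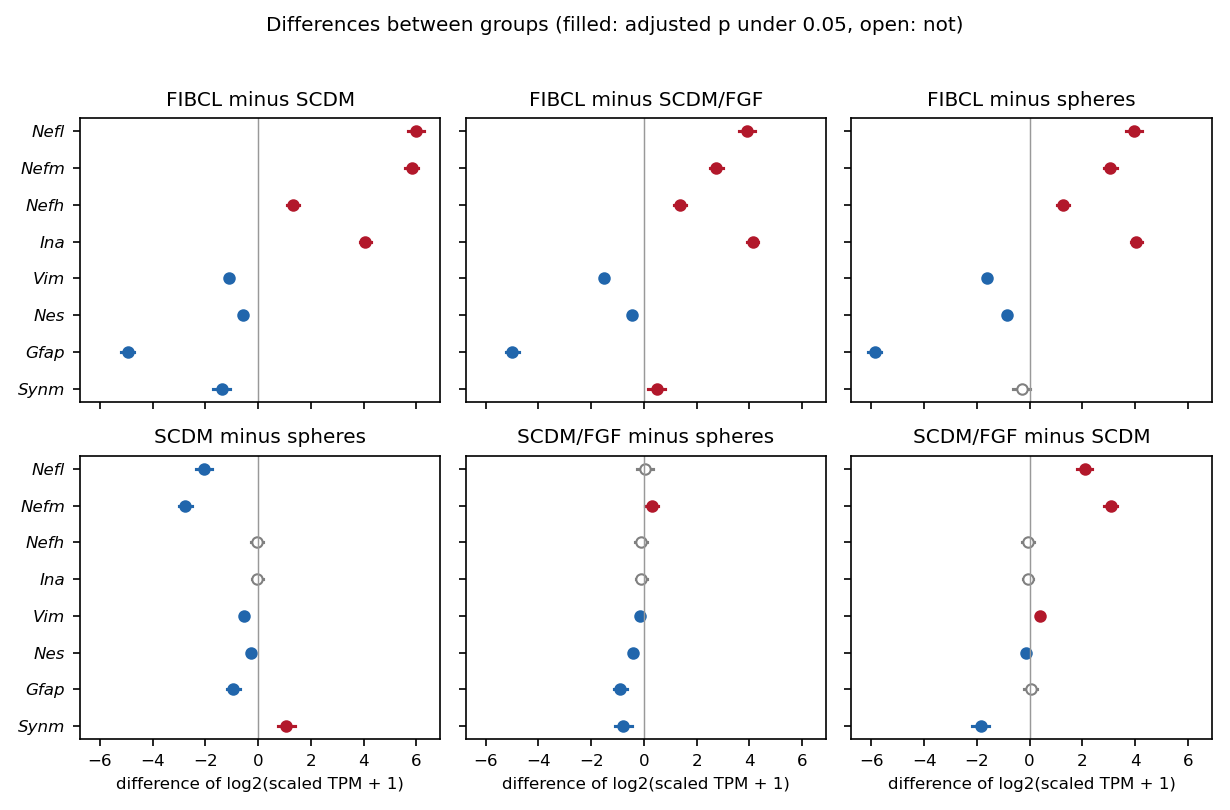
Differences in log2(scaled TPM + 1) between groups (horizontal axes) for the 8 genes tested (vertical axes), 1 panel for each of 6 comparisons. Points are the limma estimates, lines are 95% confidence intervals, filled points passed an adjusted p of 0.05 (red higher, blue lower) and open points did not. Nefl and Nefm are displaced in opposite directions by SCDM and FIBCL when each is set against spheres, and in SCDM/FGF the differences are 0.04 for Nefl and 0.30 for Nefm.

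Because TPM correct for length, the 9 genes could be added up within a library. Their sum averaged 3068 ± 108 TPM in spheres, 1937 ± 25.8 TPM in SCDM, 2355 ± 12.9 TPM in SCDM/FGF and 802 ± 70.5 TPM in FIBCL (SD, n = 3). The share of the neuronal subunits (Nefl, Nefm, Nefh, Ina and Prph) in this sum was 15.8 ± 0.786% in FIBCL, 0.563 ± 0.122% in SCDM/FGF, 0.432 ± 0.0332% in spheres and 0.0316 ± 0.0117% in SCDM. Vim still made up 79.1 ± 1.01% of the sum in FIBCL. Without Vim, the neuronal share was 75.6 ± 0.171% in FIBCL, 11.6 ± 1.89% in SCDM/FGF, 6.81 ± 0.332% in spheres and 0.521 ± 0.220% in SCDM. For each of the 6 pairs of groups the two-sided exact permutation test gave p = 0.1 (adjusted 0.1), the smallest value that 3 libraries against 3 allow, so the threshold could not be reached.

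**Figure D3:**
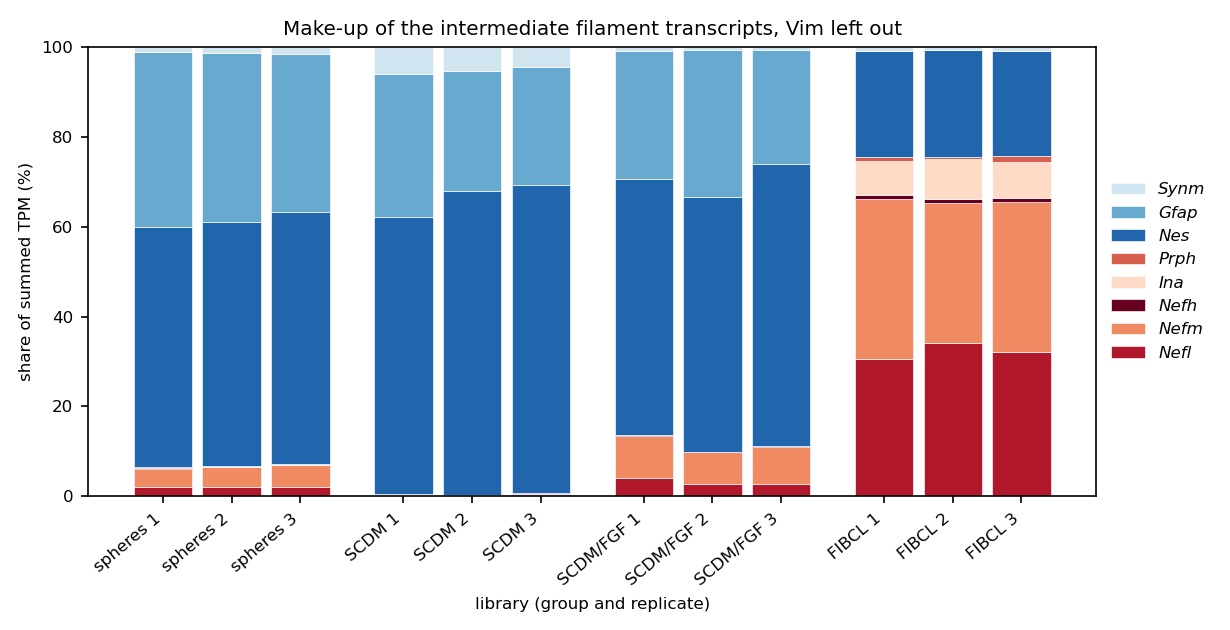
Share of each gene in the summed deposited TPM of 8 intermediate filament genes, Vim left out (vertical axis, percent), in each of the 12 libraries (horizontal axis). The neuronal subunits (red shades) make up about 75.6% in FIBCL and 0.521% in SCDM, and Nes and Gfap (blue shades) fill most of the rest.

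The genes most like each gene in pattern were found by the root mean square difference of log2(scaled TPM + 1), each gene centred on its own mean, over the 12 libraries among 11153 genes. This was done for the 6 genes whose group means spanned at least 1.5 on the log2 scale. Nefl was closest to Rundc3a (difference 0.43), Draxin (0.44) and Nefm (0.50), and Nefm to Mmp10 (0.43), Draxin (0.44) and Nefl (0.50). Ina was closest to Syn1 (0.16), Ric3 (0.17) and Plxdc1 (0.17). For Vim the nearest genes were Izumo4 (0.09), Igdcc4 (0.11) and Ctdsp1 (0.12), for Gfap they were Camp (0.19), Mme (0.23) and C3 (0.25), and for Synm they were Pdgfc (0.21), Septin6 (0.24) and Mpped2 (0.25). With a pseudocount of 0.1 in place of 1 TPM, none of the 3 genes nearest to Ina or to Gfap was kept, 3 of 3 were kept for Nefm, and 2 of 3 for Nefl, Vim and Synm. The likeness is a description over 4 groups and was not tested.

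The 3 nearest protein-coding genes on each side of the Nefl and Nefm pair were looked up after the values of the pair were seen, and none of the 6 was highest in FIBCL and lowest in SCDM. Kctd9 held 12.28 to 14.34 TPM in SCDM and 12.22 to 13.58 TPM in SCDM/FGF, and Gnrh1, Adam7 and Adam28 were under 1 TPM in every library. Dock5 was higher in SCDM/FGF than in SCDM by 0.77 on the log2 scale (adjusted p = 2.65e-05), but was highest in spheres, with 47.84 to 57.71 TPM. Dock5 was also higher in FIBCL than in SCDM by 0.32 (adjusted p = 0.00636), although the deposited values overlapped (9.26 to 9.45 and 9.04 to 10.88 TPM). Adamdec1 was 0.55 higher in SCDM/FGF than in SCDM (adjusted p = 0.00531) and at 0 TPM in all FIBCL libraries.

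The counts of called genes in the lists that follow stand against 32.7% of all genes tested that rose and 39.0% that fell from SCDM to FIBCL. Without rescaling, on the deposited TPM, 20.5% rose and 55.7% fell, and the split within several lists moved as well. Among 15 genes of other cytoplasmic filaments (keratins, desmin, syncoilin and lens filament proteins), 7 were tested, and 3 rose and 3 fell from SCDM to FIBCL (2 and 3 on the deposited TPM, median log2 difference 0.17, against -0.07 over all genes tested). Krt19 and Krt18, simple epithelial keratins, rose by 1.21 and 0.91 on the log2 scale (adjusted p = 9.13e-05 and 0.000318). Krt19 passed the limit on low values only through FIBCL. Both stayed below 2 TPM in FIBCL, and Krt18 was highest in spheres, with 3.73 to 6.59 TPM. Des, the muscle subunit desmin, was under 1 TPM in all libraries. All 3 nuclear lamin genes fell from SCDM to FIBCL (median -0.96), Lmnb2 by 0.99. Lmna, which encodes the A-type lamins, fell by 0.96 (adjusted p = 2.41e-10), from 201.53 to 205.23 TPM in SCDM to 74.47 to 84.28 TPM in FIBCL, and was highest in spheres with 252.60 to 255.50 TPM.

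Filament linkers bind intermediate filaments to junctions and to the rest of the cytoskeleton. Of 10 such genes, 8 were tested, and 5 rose and 2 fell from SCDM to FIBCL (median 0.52), or 3 and 3 on the deposited TPM. Dsp encodes desmoplakin, which anchors filaments at desmosomes, and reached 25.52, 22.75 and 22.36 TPM in FIBCL, with no more than 0.24 TPM in any other library (log2 difference from SCDM 4.91, adjusted p = 1.52e-12). Ppl, the related linker periplakin, held 3.07 to 3.66 TPM in FIBCL and at most 0.14 TPM elsewhere. Dsp and Ppl passed the limit on low values only through FIBCL. Dtnb, a dystrobrevin, rose by 1.11 (adjusted p = 1.11e-07), with 23.25 to 28.68 TPM in FIBCL against 15.07 to 15.61 TPM in SCDM. Dmd, which encodes dystrophin, fell by 1.09 (adjusted p = 0.000546), with 7.16, 3.19 and 3.17 TPM in FIBCL against 12.89 to 13.28 TPM in SCDM, and Plec, the general linker plectin, differed by -0.04 (adjusted p = 0.763).

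Small heat shock proteins and related factors fold filament proteins, and ubiquitin ligases and proteases remove them. Of 12 such genes, 9 rose and 1 fell from SCDM to FIBCL (median 0.49), or 5 and 3 on the deposited TPM. Cryab, the αB-crystallin chaperone that binds GFAP and desmin, fell by 3.82 on the log2 scale (adjusted p = 2.27e-11), from 145.96 to 170.03 TPM in SCDM to 6.79 to 8.77 TPM in FIBCL. Hspb8 rose by 2.97, to 156.66 to 173.84 TPM, and Hspb1, whose protein acts on neurofilament assembly, rose by 2.11 (adjusted p = 2.12e-09). Hspb1 was also higher in SCDM/FGF than in SCDM, by 2.46 (adjusted p = 2.68e-09), and spheres held 112.07 to 123.79 TPM, so SCDM alone was low, at 17.84 to 22.04 TPM. Trim2, a ligase that acts on the light neurofilament subunit, rose by 1.30 (adjusted p = 1.13e-07).

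Phosphorylation controls filament assembly, and of 16 kinase, kinase activator and phosphatase genes 7 rose and 5 fell from SCDM to FIBCL (median 0.10), or 4 and 9 on the deposited TPM. Cdk5r2, a neuronal activator of the kinase Cdk5, reached 9.80, 7.75 and 8.45 TPM in FIBCL, with no more than 0.18 TPM elsewhere (log2 difference from SCDM 3.54, adjusted p = 5.69e-11). It passed the limit on low values only through FIBCL. The mitotic kinases Cdk1, Aurkb and Plk1, which phosphorylate vimentin in dividing cells, were all under 1 TPM in FIBCL and fell from SCDM by 5.45, 3.66 and 3.19. All 5 proliferation markers fell as well, with a summed level of 1.07 to 2.01 TPM in FIBCL and of 113.87 to 132.23 TPM in SCDM. Their part in the fall of Vim and Nes was not tested.

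Motor proteins carry neurofilaments along the axon. Of 8 motor genes, 5 rose from SCDM to FIBCL and none fell (median 0.50), while 4 rose and 3 fell on the deposited TPM. The neuronal kinesin heavy chains Kif5c and Kif5a rose by 4.73 and 3.64 on the log2 scale (adjusted p = 6.10e-08 and 3.10e-10; Kif5a passed the limit on low values only through FIBCL), to 50.73 to 57.66 TPM and 14.31 to 16.80 TPM, from at most 2.88 TPM in all other libraries. The general form Kif5b differed by -0.02 (adjusted p = 0.813). Between SCDM/FGF and SCDM, where Nefl and Nefm differed, the difference of Kif5a was 0.17 (95% confidence interval -0.10 to 0.45) and that of Kif5c was -0.12 (-0.78 to 0.55), and neither passed the test.

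All 11 transcription and RNA-binding factors listed as regulators of filament genes changed from SCDM to FIBCL, 5 upwards and 6 downwards (median -0.19), whereas on the deposited TPM 3 rose and 6 fell. Sox2, a progenitor factor, fell by 3.21 (adjusted p = 5.81e-10), to 0.21 to 0.62 TPM. Nfix, of the nuclear factor I family that acts on glial genes, fell by 2.48, to 10.60 to 12.01 TPM. Pou4f1 and Neurod1, factors of sensory neurons, rose by 1.94 and 1.71 to 2.41 to 2.52 TPM and 1.70 to 2.06 TPM, and were at or near 0 elsewhere. Both, and Isl1 in the same count, passed the limit on low values only through FIBCL. Nfix was also lower in SCDM/FGF than in SCDM by 1.35 (adjusted p = 1.84e-08).

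Between SCDM/FGF and SCDM, 21.8% of all genes tested were higher and 21.3% lower in SCDM/FGF. Of the linkers 1 was higher and 1 lower of 8 tested, of the chaperone and turnover genes 6 were higher and 1 lower of 12, and of the kinase and phosphatase genes 3 were higher and 2 lower of 16, or 3 and 4 on the deposited TPM. Of the motors 4 were higher and none lower of 8, of the regulators 3 were higher and 4 lower of 11, and of the other cytoplasmic filaments 3 were higher and 1 lower of 7. Among the lamins 2 of 3 were lower. The medians of these lists lay between -0.31 (lamins) and 0.19 (motors), against -0.02 over all genes tested.

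**Figure D4:**
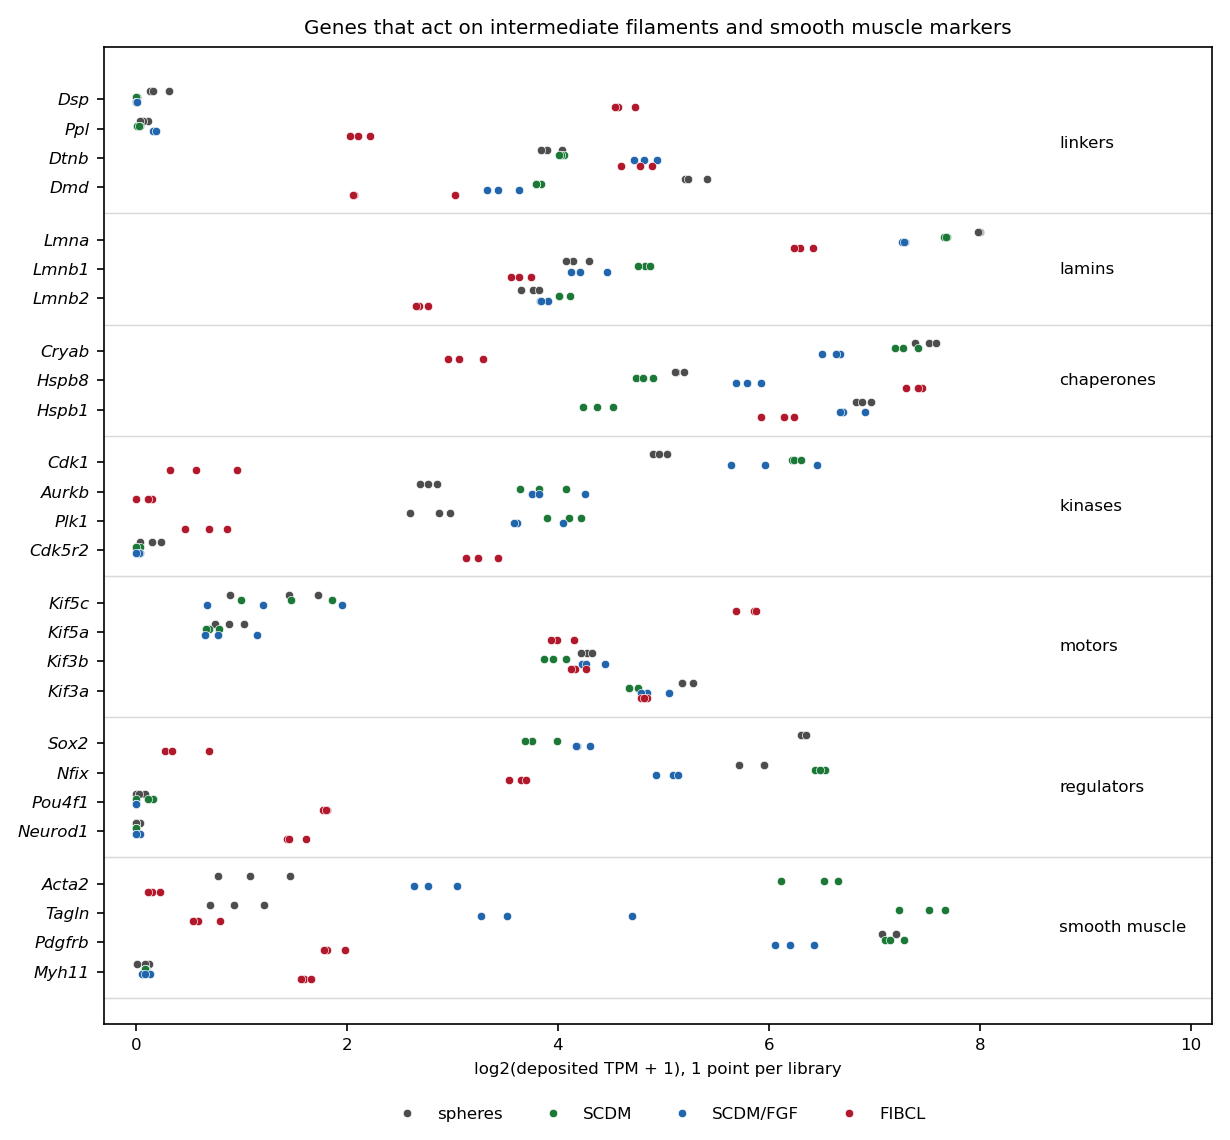
log2(deposited TPM + 1) (horizontal axis) of linker, lamin, chaperone, kinase, motor and regulator genes and of smooth muscle markers (vertical axis), with 1 point per library coloured by group. Dsp, Ppl, Cdk5r2, Kif5c and Kif5a stand apart in FIBCL, and Acta2 and Tagln are highest in SCDM.

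Markers of other cell types moved between the same groups. Of 10 glial markers 9 fell from SCDM to FIBCL (median log2 difference -3.01), with a summed level of 301.84 to 342.90 TPM in SCDM and 16.70 to 22.88 TPM in FIBCL, where Fabp7 and Cdh19 were under 1 TPM. All 6 astrocyte markers fell too, and Aqp4, the astrocyte water channel, was at 0 TPM in every FIBCL library. Of 9 mesenchymal markers 8 fell (median -6.76), from a sum of 7791 to 8272 TPM in SCDM to 130.88 to 137.94 TPM in FIBCL, where Postn and Lum were under 1 TPM. Twist1, the marker that rose, made up 84.07 to 91.75 TPM of the FIBCL sum, against 45.41 to 56.38 TPM in SCDM. All 7 macrophage markers fell (median -5.51), from 1297 to 1395 TPM to 130.67 to 148.79 TPM, with Csf1r, C1qa, C1qb and Ptprc under 1 TPM in FIBCL. With rescaling by the upper quartile, 6 of them fell and 1 was not called. Cd68, which fell by 0.26, made up 125.73 to 143.32 TPM of the FIBCL sum, and the other 6 markers summed to 4.94 to 5.47 TPM there against 1093 to 1195 TPM in SCDM. Both Vim and Gfap fell in the same comparison, and the part of these cell types in their levels was not tested. In spheres, where Vim was highest, mesenchymal markers summed to 3179 to 3369 TPM and macrophage markers to 107.14 to 123.69 TPM.

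Of 6 smooth muscle markers, Acta2, Tagln, Cnn1 and Pdgfrb were highest on average in SCDM, as was Synm, and Rgs5 and Myh11 were not. Acta2, smooth muscle actin, held 68.24 to 100.01 TPM in SCDM, 5.21 to 7.23 TPM in SCDM/FGF, 0.72 to 1.75 TPM in spheres and 0.08 to 0.17 TPM in FIBCL. Tagln fell by 3.56 from SCDM to SCDM/FGF on the log2 scale (adjusted p = 2.62e-06). The 6 markers summed to 362.24 to 443.41 TPM in SCDM, 92.53 to 118.94 TPM in SCDM/FGF, 141.52 to 155.19 TPM in spheres and 6.98 to 7.68 TPM in FIBCL. Rgs5, a pericyte marker, was highest in SCDM/FGF, with 10.01 to 12.85 TPM against 1.11 to 1.29 TPM in SCDM. Pdgfrb, however, overlapped between spheres (133.40 to 146.18 TPM) and SCDM (136.13 to 154.95 TPM). Myh11, which defines mature smooth muscle and passed the limit on low values only through FIBCL, was under 1 TPM in SCDM, SCDM/FGF and spheres and at 1.96 to 2.17 TPM in FIBCL. The part of such cells in the level of Synm was not tested. For Nefl and Nefm, the summed level of the 11 neuronal markers was 217.60 to 232.58 TPM in SCDM and 94.43 to 118.44 TPM in SCDM/FGF, most of it from Gap43. The other 10 summed to 20.43 to 24.05 TPM in SCDM and 17.25 to 23.13 TPM in SCDM/FGF, which overlap. Of the 8 tested, 1 was higher (Stmn2) and 1 lower (Gap43) in SCDM/FGF than in SCDM (median log2 difference -0.03). On the deposited TPM, and with rescaling by the upper quartile, none was higher and 1 was lower. The part of neurons in the levels of the pair was not tested.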

How the data were processed

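The authors sequenced paired ends of poly(A) libraries, trimmed the reads (SeqPrep, Sickle), aligned them (TopHat) and estimated abundances (RSEM), and the submitters' processing notes also name Cufflinks. The deposited values, made by the authors, are TPM with 2 decimals for 55487 genes. Versions and genome build are not given in the sources used here. TPM hold no read numbers, so depth is unknown.

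Sample titles gave the groups. Scaling used the mean log2 ratio of a library to the average library over 8434 genes with at least 5 TPM everywhere, after trimming 30% at each end. A gene entered the tests if it reached 1 TPM in 3 or more libraries, which left 16016. They were fitted as log2(scaled TPM + 1) in limma 3.58.1 (R 4.3.3), with a mean-variance trend, in 1 model of all 12 libraries without covariates, and p-values were adjusted by the Benjamini-Hochberg method for each comparison.

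The 9 genes and the lists were chosen with earlier results of these data known. All 9 are given with each library's value. From each pathway list at most 4 genes were named, taken from the 4 called genes with the largest change from SCDM to FIBCL. In the marker lists, genes under 1 TPM in FIBCL were named as well, a choice made after their values were seen. Genes that define a cell type, genes named in contrast because they did not pass, genes that carry a summed level and genes said to be chosen later come in addition. Other scalings, pseudocounts, limits on low values, models, a replicate block and the removal of each library in turn were tried. Tables and plots were made in Python 3.11.15 with pandas 2.3.3, scipy 1.17.1 and matplotlib 3.10.9.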

Additional observations from a re-analysis of the deposited data

Results flagged for a closer look

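The change from spheres differed between the differentiation media with and without bFGF for 5 of the 8 genes tested. This was tested by the direct contrast of SCDM/FGF with SCDM (limma with Benjamini-Hochberg adjustment). In SCDM/FGF 3 of the genes were higher and 2 lower, where 21.8% of all genes tested were higher and 21.3% lower. Nefl fell by 2.04 on the log2 scale from spheres to SCDM and differed by 0.04 in SCDM/FGF, a difference of 2.08 between the media (adjusted p = 2.56e-07). For Nefm the difference was 3.07 (adjusted p = 2.10e-09). Synm rose by 1.07 in SCDM and fell by 0.78 in SCDM/FGF, a difference of -1.86 (adjusted p = 1.31e-06). The differences of Vim, 0.39 (adjusted p = 5.36e-05), and of Nes, -0.14 (adjusted p = 0.0286), were smaller. That of Nes was no longer called without replicate 2 or 3 of SCDM or replicate 2 of SCDM/FGF. The same held with only the libraries compared in the fit (adjusted p = 0.0918), with 1 prior variance for all genes (0.0616) and with the replicate number as a block (0.0527).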

How the results depend on the processing

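Of 474 values of the 8 genes under other scalings, pseudocounts, limits and models, 459 kept their direction and their side of the threshold, 12 lost the call, 1 gained it and 2 changed sign. The 2 that changed sign did so on the deposited TPM without rescaling and had not been called: Nefl between SCDM/FGF and spheres was -0.13 and Gfap between SCDM/FGF and SCDM was -0.041. The count of genes called between SCDM/FGF and spheres, 5 of 8, was 3 without the limit on low values and 3 when only the libraries compared were fitted. Over all genes tested, the deposited TPM without rescaling moved the shares called higher and lower to 20.5% and 55.7% between FIBCL and SCDM, to 20.8% and 51.2% between FIBCL and SCDM/FGF, to 16.6% and 61.3% between FIBCL and spheres, to 17.5% and 35.5% between SCDM and spheres, to 15.8% and 42.9% between SCDM/FGF and spheres, and to 17.1% and 26.6% between SCDM/FGF and SCDM. Leaving Vim out moved the neuronal share to 75.6% (FIBCL), 11.6% (SCDM/FGF), 6.81% (spheres) and 0.521% (SCDM). The nearest genes of Ina and Gfap changed with a pseudocount of 0.1, where 0 of 3 were kept. The cause of these changes was not tested, other than that a share without Vim has a smaller denominator.

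With each library left out in turn, 517 of 540 values kept direction and call, 18 lost the call and 5 changed sign. Nefh and Ina were not tested when any FIBCL library was left out, because they then fell under the limit on low values. The count of genes called between FIBCL and SCDM/FGF ranged from 5 to 8, the lowest without replicate 1 of FIBCL, where 5 of 6 genes tested were called. Between SCDM/FGF and spheres the count ranged from 3 to 5, with 3 without replicate 1 or 3 of SCDM/FGF or replicate 1 or 2 of spheres. Values that changed sign had not been called, and they ranged from -0.10 to 0.044 for Nefh and from -0.066 to 0.013 for Ina between SCDM and spheres, from -0.15 to 0.16 for Nefl between SCDM/FGF and spheres, and from -0.046 to 0.16 for Gfap between SCDM/FGF and SCDM.

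Whether the replicate numbers pair the libraries is not known. The deviations of same-numbered libraries correlated between -0.121 and 0.0976 in 18 pairs. Libraries with different numbers were not set beside them, so these values cannot decide the question. With the replicate number as a block, 46 of 48 values kept their call, and the counts of genes called fell from 5 to 4 between SCDM/FGF and spheres and between SCDM/FGF and SCDM. The calls lost were the fall of Vim (adjusted p = 0.0572) and that of Nes (adjusted p = 0.0527). The unknown depth sets a limit on all values under 1 TPM, such as those of Nefh and Prph outside FIBCL.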
